A study of Rattus norvegicus with 36 samples.

Results

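The opioid genes described here are those of the precursors Penk and Pdyn and of the receptors Oprm1, Oprd1, Oprk1 and Oprl1, measured in dorsal root ganglia of rats with a ligated L5 spinal nerve. Every probe set whose platform annotation gives only one of these 6 symbols was taken, which gave 12 of the 26379 probe sets on the arrays, for 6 of the 10970 genes that some probe set names alone. The study compared 3 kinds of ganglia: L5 ganglia of rats with L5 spinal nerve ligation, the neighbouring L4 ganglia of such rats, and ganglia of sham-operated rats, for which the labels name L4 and L5 together. Each kind was collected 28 and 50 days after the operation, as 1 pool per day, and the labels that state a number give 30 rats per pool. Total RNA of each of the 6 pools was hybridised to 2 arrays of each of 3 Affymetrix chip types (A, B and C), 36 arrays in all. The 2 arrays of a pool are technical repeats. Strain, sex and age of the rats are not given in the sources used here. Spinal nerve ligation is a rat model of neuropathic pain in which a spinal nerve is tied off just beyond its ganglion, so that the L5 ganglion holds the injured neurons and the L4 ganglion largely spared ones.

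Opioid peptides are cut from larger precursor proteins. Penk encodes proenkephalin, the source of the enkephalins, and Pdyn encodes prodynorphin, the source of the dynorphins. The receptors described here are the mu (Oprm1), delta (Oprd1) and kappa (Oprk1) opioid receptors and the nociceptin receptor (Oprl1), all of which couple to Gi/o proteins. In sensory neurons these receptors lower calcium entry and transmitter release at the central terminals, and the mu receptor is the main site of action of morphine.

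Only the Pdyn probe set M32783cds_i_at had a strong signal among the 12. Signals are in arbitrary units brought by the authors to a common level per array. M32783cds_i_at averaged 741 over the 6 pools, at the 94.0 percentile of chip A. The other tested probe sets lay nearer to the signal set as the lower limit for a test, the 40th percentile of a chip type (39.3 on chip A and 53.6 on chip B). They were Penk S49491_s_at (66.7), Penk rc_AI009300_at (57.7, the only one of the 12 on chip B), Oprl1 rc_AI229237_at (55.3), Oprk1 U17995_at (54.0), Oprm1 S77863_s_at (44.3) and, closest to the limit, Oprm1 D16349_at (40.9).

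Under that limit lay 5 of the 12 probe sets, which are too dim to judge. Pdyn M10088cds_s_at, at 38.8, was the nearest to it, followed by Oprm1 S79903mRNA_at at 28.4, Oprm1 S79903mRNA_g_at at 20.1, Oprd1 U00475_at at 11.2 and Oprk1 E08874cds_s_at at 9.0. The delta receptor Oprd1 therefore had no probe set that could be tested, while each of the other 5 genes had at least 1. A probe set's signal depends on its own probes, so these levels give no order of abundance between the genes.

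Chip A also carries 9 antisense control probe sets, made to the opposite strand of the spiked-in bacterial transcripts, with means between 4.83 and 69.1. Their highest mean was above that of 10 of the 11 opioid probe sets on chip A, all but M32783cds_i_at. On chip B the highest antisense mean was 63.7, above that of Penk rc_AI009300_at. No detection calls were used, so a dim probe set is not called absent.

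**Figure D1:**
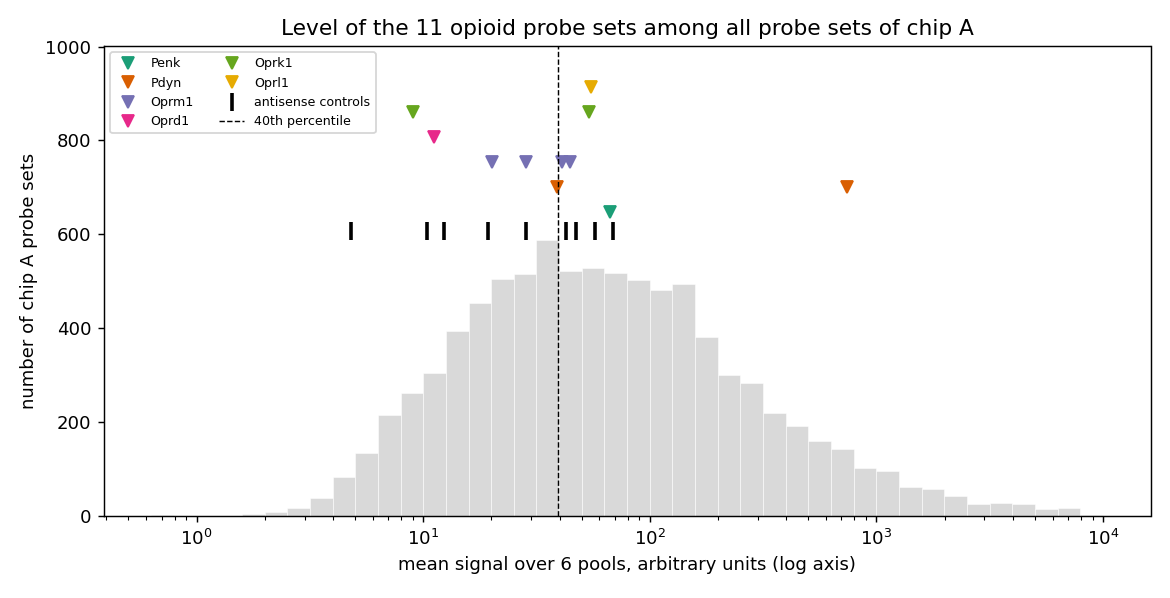
Histogram of the mean signal over 6 pools (arbitrary units, log axis) of the probe sets of chip A, with the 11 opioid probe sets of that chip as triangles coloured by gene, placed at arbitrary heights. Short vertical bars are the 9 antisense controls and the dashed line is the 40th percentile (39.3). The Pdyn probe set at 741 is the only triangle to the right of all the bars.

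The signal of Pdyn M32783cds_i_at was highest in the L5 pool of 50 days. Its 2 arrays read 579.1 and 743.4 in L5 ganglia at 28 days, and 1211 and 1051.2 in L5 ganglia at 50 days. In L4 ganglia it read 566.4 and 704 at 28 days, and 826.1 and 711.9 at 50 days. In sham ganglia it read 554.6 and 575 at 28 days, and 717.2 and 656 at 50 days. At each day both L5 arrays lay above both sham arrays, but across the days the 4 L5 arrays and the 4 sham arrays overlapped. The lower L5 array of 28 days was under both sham arrays of 50 days. The 2 arrays of a pool share RNA, so an order of arrays within a day compares single pools. How many of all tested probe sets show such an order was not counted, so here and below it is a description only.

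The L5 minus sham difference of M32783cds_i_at was 0.46 ± 0.19 on the log2(signal + pseudocount) scale (SE, 2 pools a group, 95% interval 0.04 to 0.88), a 1.38-fold higher signal. limma gave an unadjusted p of 0.0334 and, after Benjamini-Hochberg adjustment over the 15721 tested probe sets, 0.251, so the difference did not pass 0.05. At an unadjusted p under 0.05, 16.9% of all tested probe sets lay apart in the same comparison. The difference was 0.21 at 28 days and 0.71 at 50 days, and with 1 pool per ganglion type and day the change between days has no test. In RNA of whole ganglia, a different number of cells of a type and a different amount of RNA per cell cannot be told apart. The hybridisation controls, bacterial transcripts added to each array, were also brighter on the L5 arrays of chip A, with geometric means of 1177 to 1419.8 against 670.4 to 911 on L4 arrays and 764 to 975 on sham arrays. With arrays scaled to those controls the L5 minus sham difference of Pdyn was −0.04 (adjusted p = 0.932 in limma), while the median of all tested probe sets moved to −0.43. Relative to that median the Pdyn difference was 0.39.

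Against L4 ganglia the L5 difference of M32783cds_i_at was 0.30 ± 0.19 (SE, 2 pools a group, 95% interval −0.12 to 0.72), with an adjusted p of 0.402 in limma. By day it was 0.05 at 28 days, where the arrays interleaved, and 0.55 at 50 days, where both L5 arrays were above both L4 arrays. L4 minus sham was 0.16 at either day.

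The Pdyn signal of 50 days was above that of 28 days in each ganglion type. Both arrays of 50 days were above both arrays of 28 days in L5, L4 and sham ganglia, a pattern in that direction shown by 5.08% of the tested probe sets. The 50 minus 28 day difference was 0.77 in L5, 0.28 in L4 and 0.27 in sham ganglia. Over the 3 pools a day it was 0.44 ± 0.16 (SE, 95% interval 0.10 to 0.78), with an adjusted p of 0.190 in limma. It was called in a limma fit to the 12 single arrays with the pool as a random block (adjusted p = 0.0406), and was at 0.0548 when the array number of the labels was added as a replicate block. Those fits called 1031 and 796 of the 15721 tested probe sets between the days, against 45 in the fit to pool means. They count technical arrays toward the residual degrees of freedom, though the day differs only between pools.

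The other Pdyn probe set, M10088cds_s_at, was too dim to test and is given by its values. It read 45.9 and 15.5 in L5 ganglia at 28 days, and 93.8 and 52.7 in L5 ganglia at 50 days. In L4 ganglia it read 34 and 13.9 at 28 days, and 32.2 and 19.5 at 50 days. In sham ganglia it read 19.3 and 25.1 at 28 days, and 59.1 and 54.4 at 50 days. The highest single array was again an L5 array of 50 days, but the sham pool of 50 days lay between the 2 arrays of that L5 pool. The name ending of M32783cds_i_at marks a probe set that fell short of the usual number of probes, which limits how far its level can be read.

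Penk did not pass the test in either of its probe sets. S49491_s_at read 61.5 and 73.4 in L5 ganglia at 28 days, and 61.7 and 64.7 in L5 ganglia at 50 days. The L4 arrays read 28 and 68.2 at 28 days, and 57.3 and 108.7 at 50 days. The sham arrays read 40.2 and 95 at 28 days, and 70.8 and 70.7 at 50 days. The L5 arrays all lay inside the range of the sham arrays of both days, but at 50 days both L5 arrays were below both sham arrays. L5 minus sham was −0.03 ± 0.33 (SE, 95% interval −0.75 to 0.70, adjusted p = 0.976 in limma).

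The Penk probe set of chip B, rc_AI009300_at, read 68.1 and 30.8 in L5 ganglia at 28 days, and 58.9 and 84.2 in L5 ganglia at 50 days. The L4 arrays read 60.6 and 90.8 at 28 days, and 59 and 51.7 at 50 days. The sham arrays read 57.4 and 41.3 at 28 days, and 53.2 and 36.1 at 50 days. At 50 days both L5 arrays were above both sham arrays, the reverse of S49491_s_at, and at 28 days the L5 arrays spanned the sham arrays. L5 minus sham was 0.24 ± 0.30 (SE, 95% interval −0.43 to 0.91, adjusted p = 0.714 in limma). One sham array of chip B is titled 28 days and described as 50 days in the labels, and was grouped by its title. Without it the difference was 0.32, with an adjusted p of 0.616 in limma.

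The mu receptor Oprm1 had 4 probe sets, 2 of them too dim to judge. The 2 tested ones had L5 minus sham differences above 0 over both days, neither past the test, while within single days their signs differed. Without the limit on dim probe sets, the 2 dim ones had 0.16 ± 0.39 (S79903mRNA_at) and 0.08 ± 0.34 (S79903mRNA_g_at, SE), beside a median of 0.08 for all probe sets. S77863_s_at read 21 and 61.3 in L5 ganglia at 28 days, and 58 and 96.7 in L5 ganglia at 50 days. The L4 arrays read 49.1 and 23.9 at 28 days, and 48.1 and 28.7 at 50 days. The sham arrays read 38 and 48.9 at 28 days, and 18.9 and 39.5 at 50 days. The L5 pool of 50 days held the highest array, and both its arrays were above both L4 and both sham arrays of that day.

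D16349_at, the probe set of Oprm1 nearest the limit, read 43.3 and 72.8 in L5 ganglia at 28 days, and 23.9 and 42 in L5 ganglia at 50 days. The L4 arrays read 7.7 and 25.6 at 28 days, and 29.7 and 84 at 50 days. The sham arrays read 43.1 and 10.5 at 28 days, and 59.9 and 48.6 at 50 days. Both L5 arrays were above both sham arrays at 28 days and below both at 50 days. The L5 minus sham difference was thus 0.94 at 28 days and −0.57 at 50 days in D16349_at, where S77863_s_at had −0.16 and 1.11 on the same days. The 2 tested probe sets of this gene therefore lay on opposite sides of 0 on each day. Over both days the difference was 0.18 ± 0.50 in D16349_at (SE, 95% interval −0.91 to 1.27, adjusted p = 0.877 in limma). It was 0.48 ± 0.43 in S77863_s_at (SE, 95% interval −0.46 to 1.41, adjusted p = 0.596 in limma). The 2 arrays of a single pool differed by up to 4.10-fold in D16349_at and up to 2.92-fold in S77863_s_at, against at most 1.28-fold in Pdyn M32783cds_i_at. The dim pair of Oprm1 probe sets ranged over the 12 arrays from 9.4 to 57.2 with a median of 23.2 (S79903mRNA_at) and from 12.7 to 37 with a median of 17.6 (S79903mRNA_g_at).

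The kappa receptor Oprk1 showed no order of the ganglion types that held on both days. Its probe set U17995_at read 57.5 and 53.1 in L5 ganglia at 28 days, and 46.5 and 47.6 in L5 ganglia at 50 days. On L4 arrays it read 55.5 and 47.4 at 28 days, and 37.9 and 73.5 at 50 days. On sham arrays it read 60.5 and 69 at 28 days, and 42.7 and 56.3 at 50 days. Both L5 arrays lay under both sham arrays at 28 days and between them at 50 days. L5 minus sham was −0.12 ± 0.35 (SE, 95% interval −0.87 to 0.64, adjusted p = 0.884 in limma), an interval that holds changes of either sign. The other Oprk1 probe set, E08874cds_s_at, ranged from 4.7 to 21.7 with a median of 7.75 and was too dim to judge.

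Oprl1, the nociceptin receptor, had the most negative L5 minus sham difference of the 7 tested probe sets, short of the threshold. Its probe set read 50.7 and 32.1 in L5 ganglia at 28 days, and 10.7 and 60.6 in L5 ganglia at 50 days. On L4 arrays it read 63.7 and 90.6 at 28 days, and 45.7 and 66.3 at 50 days. On sham arrays it read 72.2 and 47.3 at 28 days, and 58.7 and 64.5 at 50 days. Of the 4 L5 arrays, 2 lay below every L4 and sham array and 2 within their range, and the arrays of the 50-day L5 pool were 5.66-fold apart. The L5 minus sham difference was −0.63 ± 0.35 (SE, 95% interval −1.40 to 0.14, adjusted p = 0.393 in limma), and −0.42 and −0.84 at 28 and 50 days. The L5 minus L4 difference was −0.72 ± 0.35 (SE, 95% interval −1.50 to 0.05, adjusted p = 0.287 in limma). It passed the threshold when the arrays were scaled to the hybridisation controls, at −1.20 with an adjusted p of 0.0156 in limma. So did 6710 of the 15721 tested probe sets in that comparison. Under that scaling the median of all tested probe sets was −0.64, and the Oprl1 difference relative to it was −0.56.

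The delta receptor Oprd1 had 1 probe set, which ranged from 4 to 32.3 over the 12 arrays with a median of 7.4. Its 2 highest values came from 1 L5 array and 1 L4 array of 28 days, each with a much lower partner from the same RNA. No statement on a change of Oprd1 can be made at these signals.

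**Figure D2:**
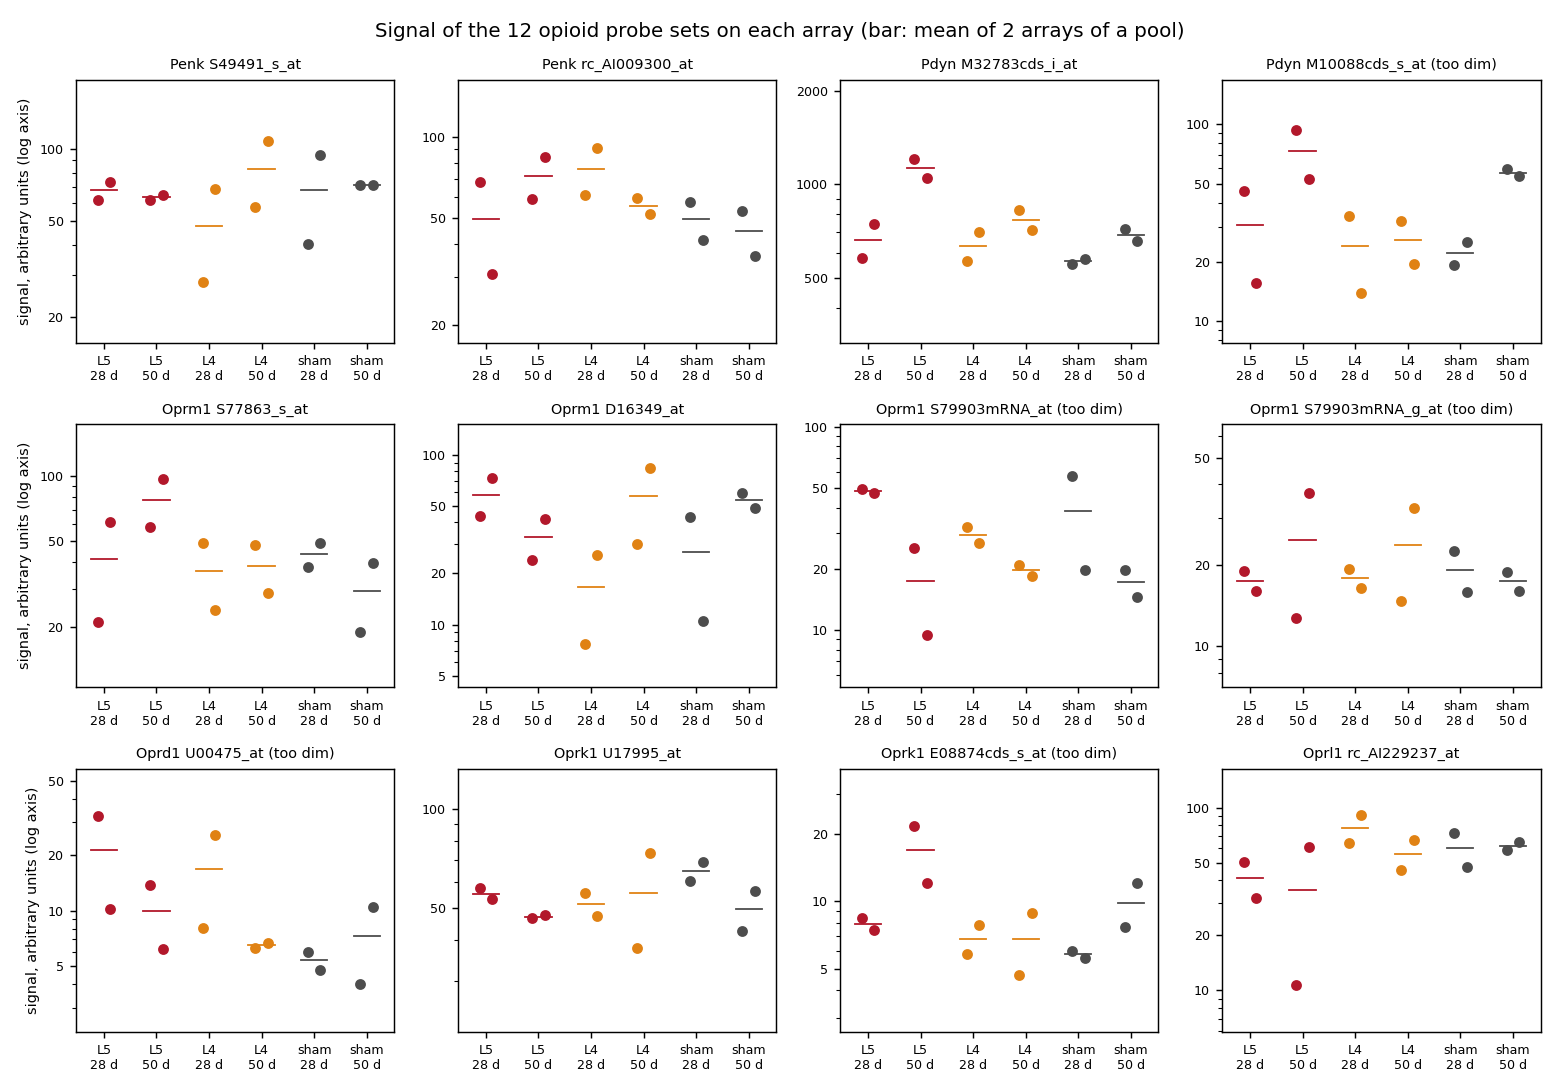
Signal of each of the 12 opioid probe sets (arbitrary units, log axis, a scale of its own in each panel) on the 2 arrays of the 6 pools, with L5 in red, L4 in orange and sham in grey, and a bar at the mean of each pool. The 2 arrays of a pool lie close together for Pdyn M32783cds_i_at and far apart in many pools of the dimmer probe sets.

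In limma, 0 of the 7 tested opioid probe sets passed an adjusted p of 0.05 between L5 and sham ganglia, a comparison in which 0.763% of all tested probe sets passed, and 1 of the 7 (Pdyn M32783cds_i_at) had an unadjusted p under 0.05. Their adjusted p ran from 0.251 to 0.976. The median of the 7 differences was 0.18, beside 0.04 for all tested probe sets. Between L5 and L4 ganglia 0 of the 7 passed in limma, against 1.27% of all tested probe sets, and none was under an unadjusted p of 0.05, where 19.4% of all were. These differences ran from −0.72 to 0.44, with a median of 0.10. Between L4 and sham ganglia 0 of the 7 passed in limma, as did 0% of all tested probe sets, and 0 of the 7 had an unadjusted p under 0.05, where 2.72% of all did. These differences ran from −0.21 to 0.35. Between 50 and 28 days 0 of the 7 passed in limma, where 0.286% of all did, and only Pdyn M32783cds_i_at was under an unadjusted p of 0.05, where 18.7% of all were. The L5 and L4 comparisons with sham share the same sham pools.

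No opioid probe set had its 4 L5 arrays entirely above or below its 4 sham arrays, which 11.6% of all tested probe sets did. The same held against L4 arrays, where 14.3% did, and for L4 against sham arrays, where 3.82% did. Without the limit on dim probe sets, the 5 dim ones also passed in none of the comparisons, with a lowest adjusted p of 0.343 in limma. The 95% intervals span at least 0.83 on the log2 scale for Pdyn and up to 2.18 for Oprm1 D16349_at, from lower to upper bound, with 2 pools a group.

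**Figure D3:**
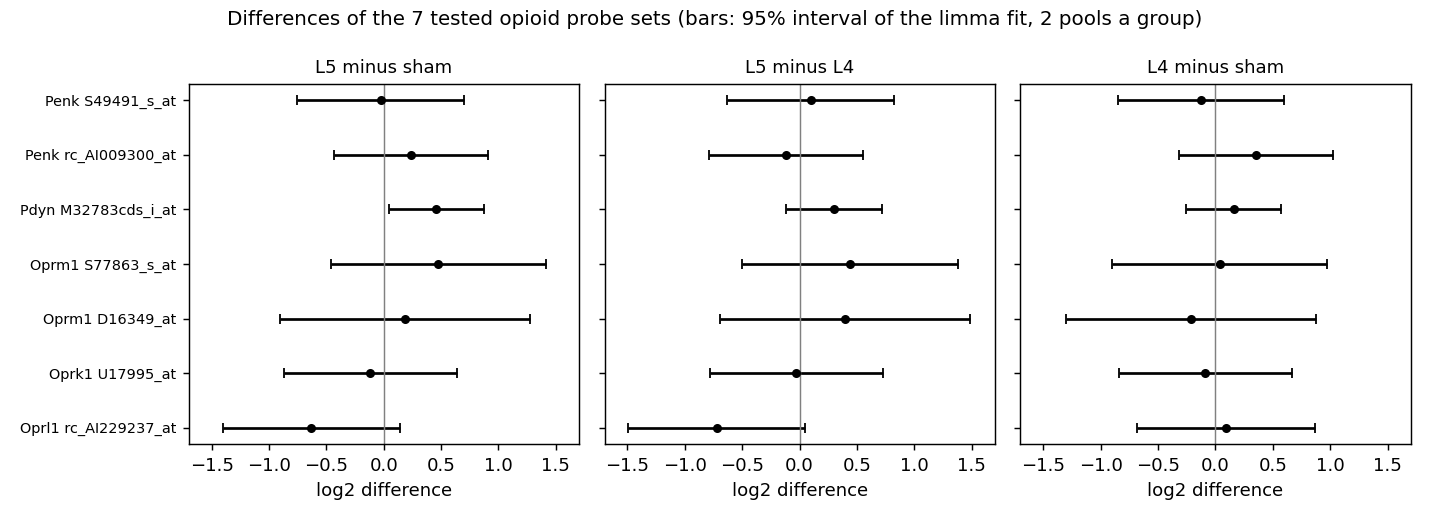
Differences on the log2(signal + pseudocount) scale for the 7 tested opioid probe sets, L5 minus sham, L5 minus L4 and L4 minus sham, as points with 95% intervals of the limma fit (2 pools a group). Only the interval of Pdyn M32783cds_i_at for L5 minus sham (0.04 to 0.88) lies to one side of 0, and its adjusted p was 0.251.

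The ganglia themselves carried the labelled injury. The nerve injury genes Vip, Npy, Atf3 and Gal all rose in L5 over sham ganglia, by 2.72, 2.03, 1.52 and 1.50 on the log2 scale, each past the threshold in limma. In L4 over sham ganglia these genes had 0.85, 0.85, 0.44 and 0.67, none past the threshold. All 10 listed neuron markers were tested and none passed, with a median L5 minus sham difference of −0.21. These differences ran from −0.97 in Rbfox3 (adjusted p = 0.0520 in limma) to 0.50 in Gap43. Of the 5 tested markers of peptidergic nociceptors, neurons that use substance P and CGRP, 1 fell (Scn10a), with a median of −0.79 and summed signals of 2598 and 3805 in the 2 L5 pools, 5959.9 and 5559 in the L4 pools, and 5479 and 5025 in the sham pools. The differences of these 5 markers were not uniform, from −1.34 in Scn10a to 0.02 in Calcb. Macrophage markers (0 of 9 past the threshold) summed to 5489.9 in the L5 pool of 28 days and to between 1543 and 2012 in the other 5 pools. Skeletal muscle markers (1 of 9 higher, Tpm2) summed to 3356 and 2279.8 in the L5 pools and to 959 and 1997 in the sham pools of 28 and 50 days. Of the tested markers of large-diameter neurons 1 of 9 fell (Scn1a), and none of 6 T lymphocyte, 6 Schwann cell and 5 satellite glia markers passed. Of all tested probe sets 0.763% passed between L5 and sham ganglia, so a count of 0 in a list this short says little about its cells. The part of these cells in the opioid values was not tested.

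Among the other genes of the opioid pathway, 66 genes were listed in 10 groups with the opioid genes among them, and 44 had a tested probe set, the brightest of which stands for the gene. In limma 1 of the 44 fell and 0 rose in L5 over sham ganglia, where 0.534% of all tested probe sets fell. Likewise 2 fell and 0 rose in L5 over L4 ganglia, where 1.01% fell, and 0 passed in L4 over sham ganglia. The median L5 minus sham difference of the 44 was −0.11, beside 0.04 for all tested probe sets. These counts rest on the brightest probe set, and dimmer probe sets of 1 more gene, Gnao1, also fell.

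Of the prohormone processing enzymes, 7 of 8 listed genes were tested, with a median of −0.51 between L5 and sham ganglia. Scg5 encodes 7B2, the chaperone that the convertase PC2 needs to mature. Its probe set M63901_g_at read 356 and 346.4 in L5 ganglia at 28 days and 519.6 and 407.4 at 50 days. The 4 L4 arrays read between 873 and 1010.3, and the 4 sham arrays between 809.3 and 936.8. Every L5 array was thus below every L4 and sham array. Scg5 fell by 1.11 on the log2 scale against sham (SE 0.19, adjusted p = 0.0288 in limma), and its difference from L4 was −1.20 (adjusted p = 0.0225 in limma). Over 20 alternatives the call against sham was lost in 6 and the call against L4 in 5, with differences from −1.60 to −0.89 and from −1.84 to −0.98. Both were lost with quantile normalization, without a filter, on first or second arrays only and without the intensity trend, and that against sham also without the sham pool of 28 days, at −0.95 with an adjusted p of 0.218 in limma. The dimmer Scg5 probe set M63901_at had −0.63, with an adjusted p of 0.163 in limma.

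Pcsk2 encodes PC2 itself, which cuts proenkephalin and prodynorphin into active peptides. M83746_at read 13.9 and 81 in L5 ganglia at 28 days, and 27.7 and 150.9 in L5 ganglia at 50 days. The 4 L4 arrays read between 133.7 and 151.6, and the 4 sham arrays between 110.9 and 170.2. On 3 of 4 L5 arrays the signal was below all L4 and sham arrays, with a wide gap between the 2 arrays of each L5 pool. Pcsk2 fell by 1.28 against L4 (SE 0.27, adjusted p = 0.0467 in limma). That call was lost in 11 of 20 alternatives, and over all 20 the difference ran from −2.26 on first arrays only to −0.30 on second arrays only (adjusted p = 0.674 in limma). Without the L4 pool of 28 days it was −1.07, with an adjusted p of 0.232 in limma. The L5 pool of 28 days averaged 47.5, under the highest antisense mean of 69.1, so the size of the difference is not secure. Against sham its difference was −1.22, with an adjusted p of 0.0623 in limma.

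The precursor list also holds Pnoc, which encodes pronociceptin, the source of the ligand of Oprl1, and Pomc, whose only probe set averaged 33.8 and was too dim to judge. Pnoc AA801448_at read 2272.1 and 1753.2 in L5 ganglia at 28 days, and 1683 and 1590 at 50 days. In L4 ganglia Pnoc read 1083.3 and 965.2 at 28 days, and 1092 and 1335.8 at 50 days. In sham ganglia Pnoc read 1193 and 1053.6 at 28 days, and 1095.9 and 1623.4 at 50 days. All L5 arrays were above all L4 arrays, and 1 sham array of 50 days reached above 1 L5 array. The difference was 0.56 ± 0.20 against sham (adjusted p = 0.194) and 0.69 ± 0.20 against L4 (adjusted p = 0.106) in limma, short of the threshold. The other tested Pnoc probe sets had 0.20 (X97374exon_g_at) and 0.46 (S79730_s_at) against sham. X97374exon_g_at averaged 218.9 in L5 and 238.85 in sham ganglia at 28 days, and 433.55 and 298.65 at 50 days. S79730_s_at averaged 93.95 and 65.4 at 28 days, and 135.65 and 93.25 at 50 days. Both were thus highest in the L5 pool of 50 days, where AA801448_at was highest in that of 28 days.

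The remaining lists had no member past the threshold between L5 and sham ganglia by its brightest probe set. Among 8 tested of 8 listed enzymes that degrade opioid peptides (median 0.13), the lowest p values were those of Ece2, an endothelin converting enzyme, at 0.66 ± 0.25, and of Mme, neprilysin, which cuts enkephalins, at 0.47 ± 0.19. Among 4 tested of 5 Gi/o proteins (median −0.22), Gnao1, the Go alpha subunit, had −0.56 ± 0.19 and Gnai2, a Gi alpha subunit, −0.36 ± 0.22. The other tested Gnai2 probe sets had differences of either sign, at 0.19, −0.17 and 0.49 against sham. The 2 dimmer probe sets of Gnao1, named here after their values were seen, fell past the threshold in 1 or both comparisons. These were M17526_at, with −1.06 against sham (adjusted p = 0.0355 in limma) and −1.02 against L4 (adjusted p = 0.0353), and rc_AI227704_at, with −1.07 against L4 (adjusted p = 0.0471).

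Receptor kinases and arrestins, which uncouple active receptors, had 5 tested of 7 listed and a median of 0.26. Their lowest p values were those of Grk4 at 1.36 ± 0.32 (adjusted p = 0.0763 in limma) and Grk2 at −0.84 ± 0.30, whose dimmer probe set had 0.20. The Grk4 probe set averaged 29.75 and 53.1 in the sham pools of 28 and 50 days. Both lay under the highest antisense mean of chip A, 69.1, so the size of the Grk4 difference is not secure. RGS proteins, which speed the switching off of G proteins, had 8 tested of 12 and a median of −0.11, with Rgs4 at −0.80 ± 0.20 (adjusted p = 0.0962) and Rgs7 at −0.60 ± 0.17 (adjusted p = 0.132) in limma. Presynaptic calcium channel subunits had 4 tested of 5 and a median of −0.29, with Cacna1b, the N-type channel, at −0.37 ± 0.21 and Cacnb3 at −0.35 ± 0.21. Adenylyl cyclases, which Gi proteins inhibit, had 2 tested of 9, Adcy2 at 0.27 ± 0.21 and Adcy3 at −0.17 ± 0.20. The 4 GIRK potassium channel genes were all too dim to test. These ± values are SE of the log2 differences, with 2 pools a group.

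**Figure D4:**
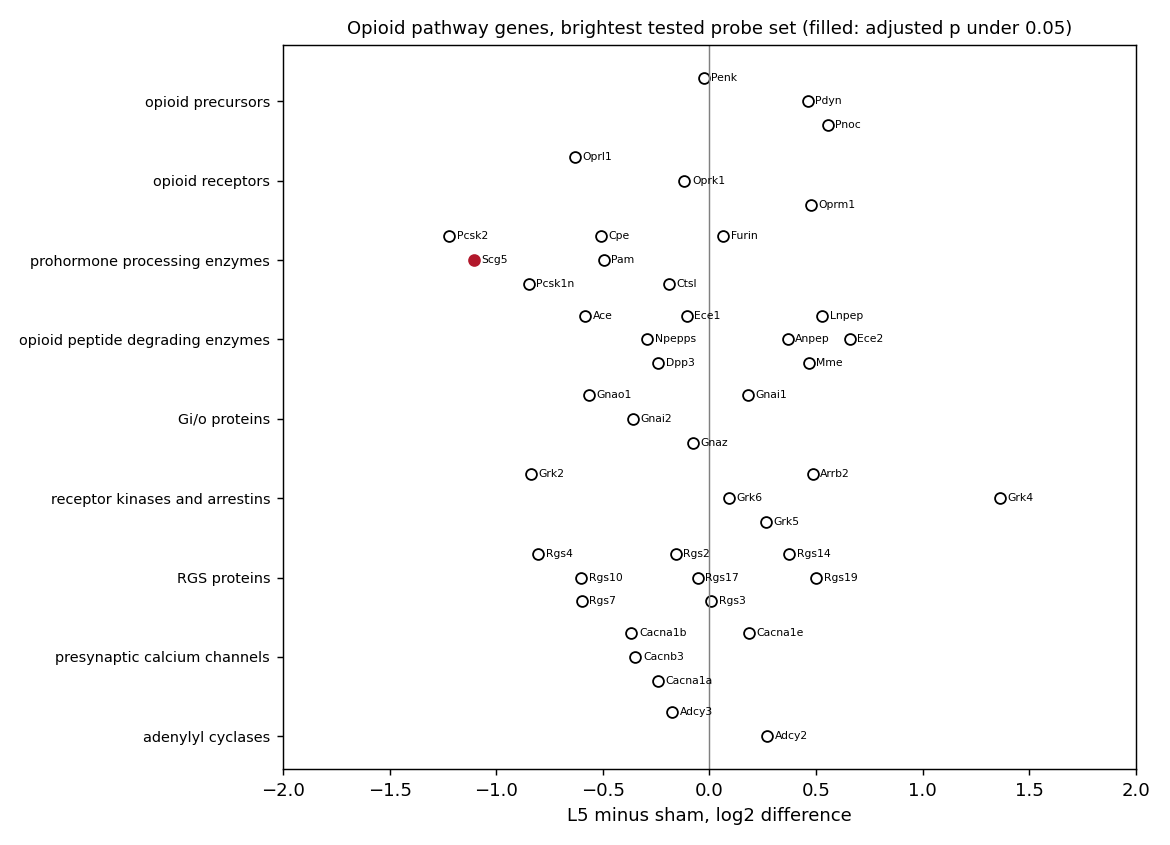
L5 minus sham difference on the log2(signal + pseudocount) scale for the 44 tested genes of the opioid pathway, by list, each at its brightest probe set, with small vertical offsets for legibility. The filled point is Scg5 (−1.11), the only one of these probe sets past an adjusted p of 0.05, and open points did not pass.

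Across the 6 pools, the probe sets most like each opioid probe set were found by Pearson correlation of log2 values over the tested single-gene probe sets of chip A (4265 or 4266 searched). For Pdyn M32783cds_i_at they were Oaz3 (r = 0.998), Abcd3 (0.997) and Chrng (0.995), and for Penk S49491_s_at RT1-A (0.984), Pcsk7 (0.978) and Lox (0.967). For Oprm1 S77863_s_at they were Msx2 (0.979), Wdpcp (0.974) and Foxn1 (0.974). Oprk1 was most like Acta2 (0.985), Atp5pf (0.983) and Mapk7 (0.957), and Oprl1 like Etfa (0.988), Uqcrfs1 (0.981) and Eftud2 (0.980). With 6 points and so many probe sets searched, values this high describe these pools only.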

How the data were processed

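The authors deposited linear intensity signals. The submitters' processing notes name MAS5, with no version. On every array the deposited intensity had a mean of about 150.1 to 150.2 without the highest and lowest 2%. Gene symbols are those of the platform annotation. Values were transformed to log2(signal + pseudocount), the pseudocount being each chip type's 20th percentile (12.8 on A, 17.7 on B, 20.2 on C), so log2 differences of dim probe sets are understated. Control probe sets and those with a mean under the 40th percentile were left out. The 2 arrays of a pool were averaged, since they share RNA (r = 0.880 to 0.958 between them). limma 3.58.1 in R 4.3.3 (lmFit, eBayes with an intensity trend) was fitted per chip type to 6 pools with ganglion type and day, leaving 2 residual degrees of freedom, with Benjamini-Hochberg adjustment over all 15721 probe sets at 0.05. The pool of each day served as 1 of the 2 replicates of a ganglion type, and the design text states that pooling left no biological replication. No 2 pools share both ganglion type and day. The p-values therefore rest on the spread left after both terms, moderated by the variance prior of limma. That spread holds differences between pools together with any ganglion difference that changes with the day. The number of pools, 2 per ganglion type, limits the precision. The script was tested on simulated data. The members and gene lists were chosen with earlier results of these data known. From each pathway list, genes past the threshold between ganglia are named, and otherwise the 2 with the lowest p. The alternatives concerned scaling, pseudocount, filter, technical arrays, the variance prior, each pool left out and the array with disagreeing labels. After the data were seen, averaging before the log was added.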

Additional observations from a re-analysis of the deposited data

Results flagged for a closer look

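For Oprm1 D16349_at, both L5 arrays were above both sham arrays at 28 days and below both at 50 days. At 28 days the lower L5 array and the higher sham array were almost level, at 43.3 and 43.1. The L5 minus sham difference was 0.94 at 28 days and −0.57 at 50 days, and the difference between the days was not tested, since each ganglion type has 1 pool a day. Its mean signal of 40.9 lay just above the limit of 39.3, and the arrays of a single pool differed by up to 4.10-fold.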

How the results depend on the processing

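The 7 tested opioid probe sets gave 28 values in 4 comparisons, refitted under 20 alternatives. Of these values 21 changed sign under at least 1 alternative, and 2 were called under at least 1: L5 minus L4 of Oprl1 scaled to the hybridisation controls, and 50 minus 28 days of Pdyn M32783cds_i_at with the pool as a random block. The opioid count past the threshold was then 1 of 7 in each of those cases, where 6710 and 1031 of all 15721 tested probe sets passed. L5 minus sham turned to 0.16 for Penk S49491_s_at and 0.02 for Oprk1 on first arrays only, where Oprm1 D16349_at had −0.49. Centring on the median gave −0.01 for D16349_at. Scaling to the hybridisation controls gave −0.20 for it, −0.20 for Penk rc_AI009300_at, −0.04 for Pdyn, and −0.35 for Pdyn between L5 and L4. Leaving out each pool gave −0.27 to 0.22 for Penk S49491_s_at, −0.10 to 0.57 for Penk rc_AI009300_at, −0.03 to 0.98 for Oprm1 S77863_s_at, −0.65 to 1.02 for D16349_at and −0.24 to 0.01 for Oprk1, with the sign turned without the L5 pool of 50 days (first 3), without the L5 pool of 28 days (D16349_at) or without the sham pool of 28 days (Penk S49491_s_at, D16349_at, Oprk1). The cause was not tested. A filter at the 60th percentile left only Pdyn M32783cds_i_at of the opioid probe sets.

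Probe sets past the threshold between L5 and sham (120) numbered 41 with quantile normalization, 413 with median centring (44 higher, 369 lower, against 36 higher and 84 lower), 2906 scaled to the hybridisation controls (33 higher, 2873 lower), 31 without a filter, 0 on first arrays (1914 at an unadjusted p under 0.05 in limma), 2 on second arrays, 1114 with the pool as a random block, 977 with the replicate block added and 3 without the intensity trend, and, with each pool left out, 12 without the 28-day sham pool, 62 without the 50-day sham pool and 407 to 621 without another pool. Between L4 and sham (0 in limma, 427 unadjusted) they numbered 6 scaled to the controls, 1 with the random block and 0 to 11 with each pool left out. Between L5 and L4 (199) they numbered 53 (quantile), 680 (median), 6710 (controls), 19 (no filter), 0 on first or second arrays and without the trend, 1388 (random block), 1186 (replicate block) and 98 to 784 with each pool left out. Between the days (45) they numbered 15, 90, 291, 23, 2 (first arrays), 5 (second arrays), 1031, 796, 0 (no trend) and 69 to 422 in the same order. Array numbers did not pair the arrays (r of deviations between pools on chip A from −0.10 to 0.11).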
